A study of Mus musculus with 6 samples.

Results

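The Zfp genes are the mouse genes named as zinc finger proteins by the symbol Zfp and a number. Of 364 protein-coding genes with such a symbol (the tristetraprolin gene Zfp36 and its Zfp36l relatives left out), all were in the expression table, 24 were at 0 in every library, 67 lay above 0 but under the level used here, and 273 had a mean of at least 0.5 FPKM over the 6 libraries. FPKM is the number of sequenced fragments scaled by transcript length and library depth. The 273 genes, of 11500 genes tested at that level, were split by chromosome into 66 on chromosome 7, 15 on chromosome 9, 187 on the other autosomes and 5 on X. The genes were chosen by symbol and mean FPKM, but chromosomes 7 and 9 had been singled out from the same knockout against GFP-Rgnef contrast in these libraries. The counts and medians by chromosome are therefore a description and carry no test. Just inside the level limit were Zfp438 (mean 0.504 FPKM) and Zfp467 (0.515 FPKM), and just outside were Zfp128 on chromosome 7 (0.480 FPKM) and Zfp202 on chromosome 9 (0.470 FPKM). Passing only through the knockout mean, with a GFP-Rgnef mean under 0.5 FPKM, were 7 genes (Zfp112 and Zfp940 on chromosome 7, Zfp949 on chromosome 9, Zfp438 and Zfp467 on other autosomes, Zfp185 and Zfp711 on X), and 1 gene, Zfp791, passed only through the GFP-Rgnef mean. The limit favoured the direction of these genes, and they were kept in the counts by chromosome.

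The cells were ID8-KMF, a mouse ovarian cancer line of C57Bl6/J origin obtained from ID8 cells by passage in animals. All 6 libraries came from Rgnef-/- cells. For 3 libraries the label names no construct (Rgnef -/-, called knockout). In the other 3 the cells re-expressed GFP-Rgnef from a lentivirus (Rgnef-/- + GFP-Rgnef (lentiviral), called GFP-Rgnef). Rgnef, gene symbol Arhgef28, is a guanine nucleotide exchange factor that binds focal adhesion kinase. Both populations were harvested while subconfluent from flat dishes coated with Matrigel, and poly-A RNA was sequenced. The labels do not say whether the libraries came from separate cultures or whether either population was 1 clone, so p-values measure only the spread between these libraries. There was no group with Rgnef intact, and the lentivirus, GFP, Rgnef and any other difference between the populations cannot be told apart. DNA copy number was not analysed here.

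Most Zfp genes encode DNA-binding proteins built from C2H2 zinc fingers, short folds in which cysteines and histidines hold a zinc ion and a helix reads a few DNA bases. Arrays of fingers read longer sites. Many of these proteins also carry a KRAB domain, which binds the corepressor TRIM28 (also called KAP1). TRIM28 recruits the histone H3 lysine methyltransferase SETDB1 and heterochromatin protein 1, and the assembly silences retrotransposons and maintains imprinted DNA methylation. The genes arose by repeated local duplication and lie in clusters of related copies, several of them on mouse chromosomes 7, 9, 13 and 17.

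The depth implied by the FPKM steps was 15898965 to 17977069 reads per library, and the median Zfp gene had 157 to 198 reads in a library. Arhgef28 had 57.2, 50.9 and 50.02 FPKM in the GFP-Rgnef libraries and 0.116, 0.110 and 0.134 FPKM in the knockout libraries, a log2 difference of -5.58 (SE 0.0893, limma adjusted p = 3.02e-08). Of 12 ovarian surface epithelium markers 10 were above the level limit (Krt7 and Lrrn4 were near 0). Their summed level was 1828 to 2714 FPKM in GFP-Rgnef and 1809 to 2848 FPKM in knockout cells, mostly Krt19 (1412, 1359 and 794 against 1309, 1268 and 679 FPKM). Limma called 2 higher and 1 lower, against 8.04% and 5.34% of all tested genes. Cdh2 had 9.11, 9.89 and 11.2 against 44.0, 44.1 and 44.5 FPKM, and Upk3b 119.5, 114.7 and 42.6 against 319.1, 317.8 and 116.3 FPKM. Lower in knockout libraries were Krt18 (332, 342 and 286 against 230, 214 and 229 FPKM) and Cdh1 (7.10, 7.62 and 7.26 against 6.58, 5.57 and 3.30 FPKM). Of 8 leukocyte markers only Cd68 passed, and Adgre1 and Cd3e were among those at 0 (sum 2.24 to 3.49 against 2.54 to 3.89 FPKM). Of 5 endothelial markers only Tek passed and Kdr was at 0 (sum 95.7 to 108 against 85.9 to 146 FPKM). Of 7 fibroblast markers 4 passed, 1 was called lower and none was at 0 throughout (sum 49.5 to 71.2 against 39.6 to 44.4 FPKM). The sum was mostly Dcn (63.6, 69.7 and 43.4 against 38.8, 36.4 and 23.3 FPKM), while Col1a1 had 1.353, 0.989 and 3.02 against 4.03, 3.61 and 8.92 FPKM, and the part of these markers in the results was not tested.

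Zfp genes of chromosomes 7 and 9 were higher in knockout than in GFP-Rgnef cells almost throughout, while those of the other autosomes were centred near no difference. On chromosome 7, 62 of 66 Zfp genes had a difference above 0, with a median of 0.25 on the log2(FPKM + 1) scale (quartiles 0.17 and 0.40, range -0.05 to 1.03), and the median ratio of group mean FPKM was 1.26. On chromosome 9 it was 14 of 15, with a median of 0.25 (range -0.06 to 0.75) and a median ratio of 1.28. On the other autosomes it was 108 of 187, with a median of 0.03 (quartiles -0.06 and 0.12) and a median ratio of 1.02. That last median passed to -0.01 without GFP-Rgnef library 1 and to -0.02 without knockout library 3. The shares of Zfp genes above 0 were 93.9% on chromosome 7, 93.3% on chromosome 9 and 57.8% on the other autosomes. Among tested genes without a Zfp symbol they were 87.5%, 90.1% and 39.7%. A difference above 0 was thus common to most genes of chromosomes 7 and 9. All differences are knockout minus GFP-Rgnef, and the log2(FPKM + 1) scale understates the change of genes of low level.

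By limma across the 11500 genes at an adjusted p below 0.05, 22 Zfp genes were called higher in knockout cells and 1 lower, against 8.04% and 5.34% of all tested genes (925 higher and 614 lower, or 1134 higher and 463 lower with each library centred on the other autosomes). On chromosome 7, 13 of 66 Zfp genes rose and 0 fell, where 28.8% of all tested genes of the chromosome were called higher and 0.855% lower. On chromosome 9, 5 of 15 rose and 0 fell, where 36.6% of tested genes were called higher and 1.25% lower. Over both chromosomes 18 of 81 rose and 0 fell, where 32.2% were called higher and 1.03% lower. On the other autosomes 3 of 187 rose and 1 fell, where 4.16% were called higher and 6.12% lower. All 3 knockout libraries were above all 3 GFP-Rgnef libraries for 39 Zfp genes on chromosome 7 (54.0% of its tested genes), 9 on chromosome 9 (63.2%), 48 on both together (58.0%) and 11 on the other autosomes (10.1%). All 3 were below for 0 on chromosome 7 (1.83%), 0 on chromosome 9 (2.19%; 1.99% for both together) and 13 on the other autosomes (19.1%).

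The other genes of chromosomes 7 and 9 gave like values. On chromosome 7, the 753 tested genes without a Zfp symbol had a median log2 difference of 0.24 and a median ratio of 1.21. On chromosome 9, 624 such genes had 0.28 and 1.24, and on the other autosomes 9411 had -0.04 and 0.968. With each chromosome's median over genes without a Zfp symbol removed from every library, the Zfp medians became 0.002375 on chromosome 7, -0.04 on chromosome 9 and 0.08 on the other autosomes, and the genes called higher went from 13 to 1, from 5 to 1 and from 3 to 4. Zfp genes were of lower level than most genes, with a median of 4.46 FPKM on chromosome 7, 4.21 on chromosome 9 and 4.88 on the other autosomes, against 16.7 over all tested genes. Among genes without a Zfp symbol at 2.03 to 10.2 FPKM, the middle levels of Zfp genes, 36 of 188 on chromosome 7 and 45 of 165 on chromosome 9 were called higher, with medians of 0.22 and 0.26.

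**Figure D1:**
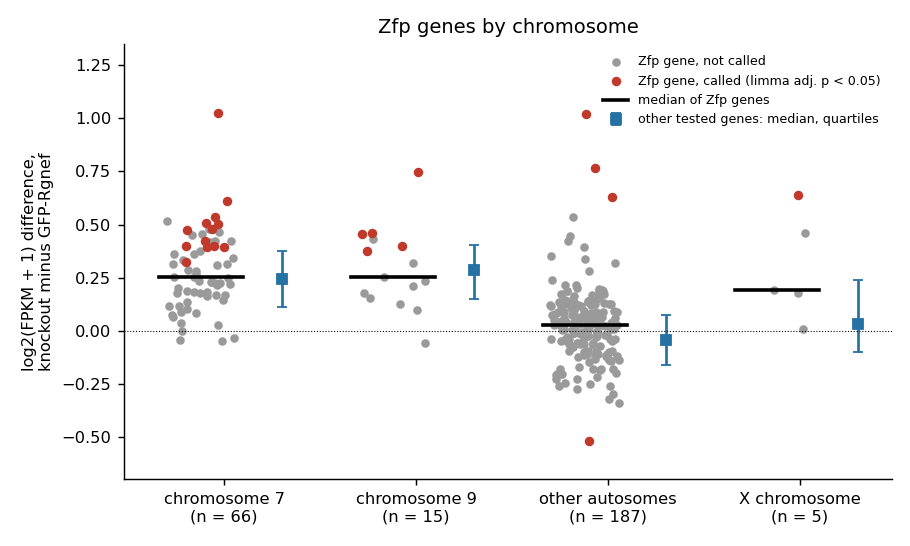
Difference between knockout and GFP-Rgnef cells, on the log2(FPKM + 1) scale, for each of 273 Zfp genes (points, red where called by limma at an adjusted p below 0.05) by chromosome, with the median of Zfp genes (black line) beside the median and quartiles of the other tested genes of the same chromosomes (blue square and bar). The medians of chromosomes 7 and 9 lie at 0.25, and that of the other autosomes at 0.03.

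No single library carried the difference. The median deviation of the 66 chromosome 7 genes from their own mean over the 6 libraries was -0.17, -0.10 and -0.10 (log2) in GFP-Rgnef libraries 1, 2 and 3 and 0.13, 0.12 and 0.15 in knockout libraries 1, 2 and 3. For the 15 chromosome 9 genes it was -0.23, -0.17 and -0.08, then 0.09, 0.16 and 0.17. On both chromosomes every knockout library was above every GFP-Rgnef library. The same held for tested genes without a Zfp symbol. Their medians were -0.12, -0.10 and -0.16, then 0.15, 0.11 and 0.12 on chromosome 7. On chromosome 9 they were -0.16, -0.13 and -0.15, then 0.15, 0.14 and 0.15. Over the 187 genes of the other autosomes the medians were -0.07, -0.04 and 0.09 in GFP-Rgnef and -0.05, -0.02 and 0.09 in knockout libraries. There the libraries numbered 3 were the high ones in both groups, with 130 and 131 of 187 genes above their mean.

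The summed reads gave the same order. For every 100 reads in Zfp genes of the other autosomes, chromosome 7 Zfp genes had 17.3, 17.9 and 16.6 reads in the GFP-Rgnef libraries and 22.5, 22.0 and 21.5 in the knockout libraries, or 17.3 ± 0.647 against 22.0 ± 0.515 (SD, n = 3) and a ratio of 1.28. Chromosome 9 Zfp genes had 5.95, 6.27 and 5.91 reads against 8.21, 8.12 and 7.94, or 6.04 ± 0.197 against 8.09 ± 0.136 (SD, n = 3) and a ratio of 1.34. In neither case did the groups overlap. Nor did they in the summed FPKM of tested genes without a Zfp symbol. Those sums were 43750, 43890 and 42950 in GFP-Rgnef and 51600, 51490 and 52200 in knockout libraries on chromosome 7. On chromosome 9 they were 38190, 38360 and 38780 against 44030, 45960 and 45400. These sums, too, are a description, since the same contrast had singled out the chromosomes.

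**Figure D2:**
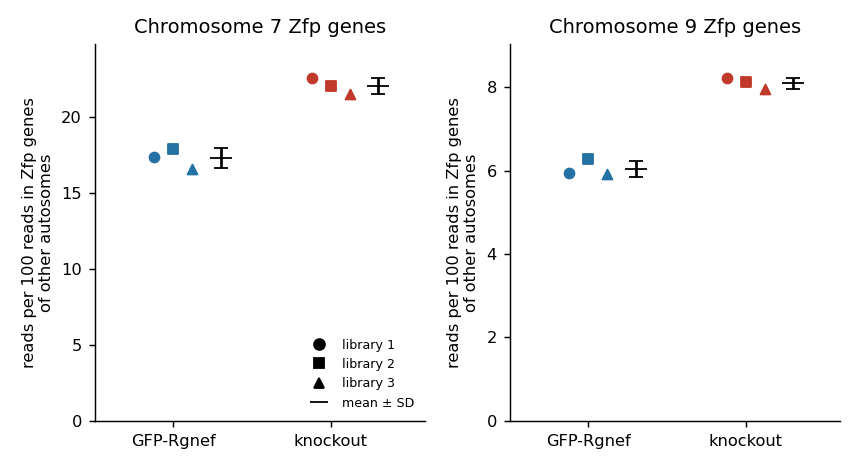
Reads summed over the Zfp genes of chromosome 7 (left) and chromosome 9 (right) per 100 reads summed over the Zfp genes of the other autosomes, for each of 3 GFP-Rgnef (blue) and 3 knockout (red) libraries, with the mean and SD of each group in black; the vertical axes start at 0. On chromosome 7 the knockout libraries sit between 21.5 and 22.5 and the GFP-Rgnef libraries between 16.6 and 17.9.

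The promoters of 4 called genes are shown for the genes the results turn on: the gene of smallest adjusted p on chromosome 7 (Zfp629) and on chromosome 9 (Zfp651), the gene of largest difference on the other autosomes (Zfp979) and the gene that fell (Zfp523). Each runs from 250 bases before to 50 bases after the RefSeq transcript start (GRCm38.p6), 5′ to 3′ on the gene's strand. Capitals mark matches, on either strand, to the GC box GGGCGG, the CCAAT box CCAAT, the ETS core CGGAAG, the YY1 core ATGGCG or the TATA box TATAAA.
Zfp629, chr7:127615223-127615522, minus strand: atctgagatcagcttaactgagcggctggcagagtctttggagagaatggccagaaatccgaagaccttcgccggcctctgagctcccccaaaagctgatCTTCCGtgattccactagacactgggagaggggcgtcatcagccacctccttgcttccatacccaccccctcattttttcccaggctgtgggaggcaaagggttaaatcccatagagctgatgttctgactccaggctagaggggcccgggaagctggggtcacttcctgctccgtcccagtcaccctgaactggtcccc
Zfp651, chr9:121759783-121760082, plus strand: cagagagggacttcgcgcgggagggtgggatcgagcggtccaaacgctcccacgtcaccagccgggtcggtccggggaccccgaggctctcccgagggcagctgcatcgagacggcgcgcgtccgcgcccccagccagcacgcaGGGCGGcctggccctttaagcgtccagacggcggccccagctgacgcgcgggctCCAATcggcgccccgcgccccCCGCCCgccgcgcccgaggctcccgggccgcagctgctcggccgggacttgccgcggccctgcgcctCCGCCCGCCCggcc
Zfp979, chr4:147642459-147642758, minus strand: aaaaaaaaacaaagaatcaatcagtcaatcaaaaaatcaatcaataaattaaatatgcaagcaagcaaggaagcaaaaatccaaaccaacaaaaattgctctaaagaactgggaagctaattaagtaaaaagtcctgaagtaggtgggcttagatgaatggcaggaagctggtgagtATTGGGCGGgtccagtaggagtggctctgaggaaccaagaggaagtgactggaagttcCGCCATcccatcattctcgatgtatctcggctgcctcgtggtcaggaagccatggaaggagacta
Zfp523, chr17:28176946-28177245, plus strand: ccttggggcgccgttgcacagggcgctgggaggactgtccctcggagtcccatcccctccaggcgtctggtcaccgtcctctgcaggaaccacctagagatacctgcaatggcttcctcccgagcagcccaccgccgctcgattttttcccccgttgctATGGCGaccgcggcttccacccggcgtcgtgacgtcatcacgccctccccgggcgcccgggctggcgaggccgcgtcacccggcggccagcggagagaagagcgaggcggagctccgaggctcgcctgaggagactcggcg
The Zfp651 window held 46 CpG dinucleotides and 78.7% G and C, with 4 GC box matches, some overlapping, and 1 CCAAT match. The Zfp523 window held 34 CpG and 1 YY1 core match, the Zfp629 window 8 CpG and 1 ETS core match, and the Zfp979 window 5 CpG with a GC box match joined to a CCAAT match and a YY1 core match. The GENCODE 5′ end of the gene lies 525 bases from the RefSeq start for Zfp629 and 703 bases for Zfp651, so these windows may not be the starts used in these cells. A match is a description of letters and not a bound site.

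On chromosome 7, the 13 genes that rose were Zfp629, Zfp146, Zfp646, Zfp74, Zfp260, Zfp768, Zfp180, Zfp771, Zfp111, Zfp382, Zfp235, Zfp110 and Zfp976. Zfp629 (chr7:127607031-127615797), a protein of 19 fingers, had 1.78, 3.18 and 2.47 FPKM in GFP-Rgnef and 6.16, 5.31 and 6.57 FPKM in knockout libraries, from 73 to 122 and from 223 to 267 reads. Its means were 2.48 ± 0.702 and 6.01 ± 0.638 FPKM (SD, n = 3), a log2 difference of 1.03 (SE 0.157, limma adjusted p = 0.0056). Every knockout library was above every GFP-Rgnef library.

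Zfp146, also known as OZF and made of little more than its 10 fingers, was the most abundant Zfp gene of chromosomes 7 and 9. It had 51.1, 51.2 and 53.1 FPKM in GFP-Rgnef and 66.2, 68.0 and 72.0 FPKM in knockout libraries. Its means were 51.8 ± 1.12 and 68.7 ± 2.99 FPKM, a log2 difference of 0.40 (SE 0.063, adjusted p = 0.0063). Zfp646, with 27 fingers the longest array on the chromosome, had 6.30, 5.99 and 5.69 against 9.13, 8.96 and 8.66 FPKM, a log2 difference of 0.51 (SE 0.083, adjusted p = 0.0072). Its exons overlap those of Zfp668 on the opposite strand by 608 bases, and the sources used here do not say whether strand was used in counting. Zfp629, Zfp146 and Zfp646 kept their calls with any 1 library left out. With the chromosome's median removed, Zfp629 kept its call (limma adjusted p = 0.0190). Zfp146 (adjusted p = 0.238) and Zfp646 (adjusted p = 0.102) lost theirs.

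The other chromosome 7 genes that rose lost their calls without 1 or another library. Zfp74, a KRAB zinc finger gene, had 4.19, 3.31 and 3.59 FPKM in GFP-Rgnef and 5.98, 5.76 and 5.18 FPKM in knockout libraries (difference 0.50, adjusted p = 0.0201, up to 0.0844 without GFP-Rgnef library 2 or knockout library 1 or 2). Zfp260 had 14.6, 14.6 and 16.5 against 18.5, 20.3 and 22.2 FPKM (0.39, adjusted p = 0.0278, up to 0.108 without GFP-Rgnef library 1 or 2 or knockout library 2 or 3). In both genes the groups did not overlap. Zfp768 had 7.65, 8.41 and 7.53 against 10.2, 10.1 and 12.4 FPKM (0.42, adjusted p = 0.0312, between 0.0583 and 0.0995 without any 1 library). Zfp180 had 7.77, 7.82 and 8.57 against 10.6, 10.01 and 10.4 FPKM (0.32, adjusted p = 0.0349, up to 0.133 without any library but GFP-Rgnef 3). Zfp771 had 35.5, 33.7 and 27.8 against 46.1, 41.8 and 40.7 FPKM (0.40, adjusted p = 0.0355, up to 0.108 without any library but GFP-Rgnef 1 or knockout 3). The 5 remaining genes that rose, among them Zfp110, which encodes the p75 neurotrophin receptor partner NRIF, had differences of 0.40 to 0.61, and each lost its call in at least 5 of the 6 fits that left out a library, with an adjusted p of up to 0.154. Without GFP-Rgnef library 1, 2 or 3 the chromosome's called genes numbered 5, 4 and 11, and without knockout library 1, 2 or 3 they numbered 6, 4 and 6.

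At the low end of chromosome 7, Zfp524 had 6.52 ± 0.166 against 6.30 ± 0.752 FPKM (SD, n = 3, difference -0.05, adjusted p = 0.816), with overlapping groups. It overlaps Fiz1, and 45.0% of its 50-base windows occur in another gene. Zfp688 had 3.82 ± 0.0353 against 3.67 ± 0.232 FPKM (-0.04, adjusted p = 0.813). Zfp568, which represses a placental Igf2 transcript in the embryo, had 18.8, 17.9 and 18.6 against 21.4, 21.7 and 19.5 FPKM (0.17, adjusted p = 0.183). Zfp143, an activator bound at many promoters, had 9.07 ± 0.360 against 9.81 ± 0.377 FPKM (0.10, adjusted p = 0.448). The knockout libraries were above the GFP-Rgnef libraries in both genes, by less than the test resolved. Zfp568, Zfp143 and, below, Zfp57 were chosen after their values were seen, for their known roles.

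**Figure D3:**
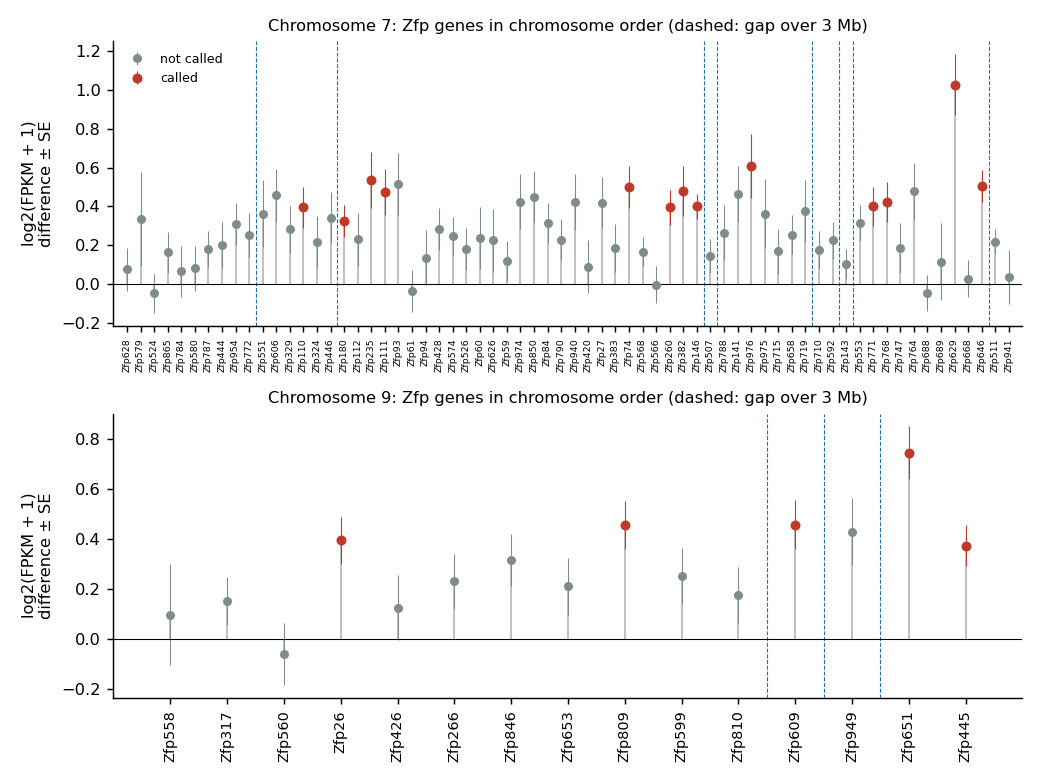
Difference between knockout and GFP-Rgnef cells (log2(FPKM + 1), bars: SE from limma) for the 66 Zfp genes of chromosome 7 and the 15 of chromosome 9 in chromosome order, red where called; dashed lines mark gaps of over 3 Mb. Differences above 0 run along both chromosomes, and 4 genes of chromosome 7 and 1 of chromosome 9 lie below 0.

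On chromosome 9 the 5 genes that rose were Zfp651, Zfp609, Zfp809, Zfp445 and Zfp26. Zfp651 (chr9:121759330-121771742) had 2.77, 2.96 and 2.41 FPKM in GFP-Rgnef and 5.46, 4.81 and 5.41 FPKM in knockout libraries. Its means were 2.71 ± 0.281 and 5.23 ± 0.361 FPKM (SD, n = 3), a log2 difference of 0.75 (SE 0.104, adjusted p = 0.0043), and the call held with any 1 library left out. The call also held with the chromosome's median removed (limma adjusted p = 0.0323). Zfp609 (chr9:65692391-65827564), a large protein with 1 finger found by the pattern search, had 32.5, 33.4 and 28.0 against 47.8, 43.1 and 39.3 FPKM. Its means were 31.3 ± 2.86 and 43.4 ± 4.26 FPKM, a log2 difference of 0.46 (SE 0.097, adjusted p = 0.0195, up to 0.0726 without knockout library 1 or 2). In both genes the lowest knockout library was above the highest GFP-Rgnef library.

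Zfp809, a KRAB protein that recognises the primer binding site of murine leukemia retroviruses and brings TRIM28 to them, had 8.87, 9.78 and 9.79 FPKM in GFP-Rgnef and 11.9, 13.5 and 14.9 FPKM in knockout libraries (0.46, SE 0.098, adjusted p = 0.0201, up to 0.0770 without GFP-Rgnef library 1 or 2 or knockout library 2). Zfp445, a KRAB protein that maintains imprinted methylation, had 13.4, 14.6 and 15.8 against 19.9, 18.8 and 18.8 FPKM (0.37, SE 0.083, adjusted p = 0.0229, up to 0.0868 without library 1 or 2 of either group). Zfp26, a KRAB protein of 22 fingers, had 6.35, 6.66 and 6.82 against 8.31, 8.74 and 10.1 FPKM (0.40, SE 0.095, adjusted p = 0.0296, up to 0.101 without GFP-Rgnef library 1 or 2 or knockout library 2 or 3). None of these 3 genes overlapped between groups, and each was 1.31 to 1.42 times as high in knockout cells.

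Next by p on chromosome 9 were Zfp949, with 0.404 ± 0.159 against 0.885 ± 0.0624 FPKM and 8 to 31 reads in a library (0.43, adjusted p = 0.0727), and Zfp846, with 2.18 ± 0.229 against 2.96 ± 0.0850 FPKM (0.32, adjusted p = 0.0824). Neither passed the threshold. Zfp949 passed the level limit only through the knockout mean, so its direction was favoured by the limit. The lowest were Zfp560, with 3.08 ± 0.558 against 2.89 ± 0.106 FPKM (-0.06, adjusted p = 0.818), and Zfp558, with 1.08 ± 0.157 against 1.29 ± 0.659 FPKM (0.10, adjusted p = 0.809), whose groups overlapped. The chromosome's called genes numbered 2, 2 and 5 without GFP-Rgnef library 1, 2 or 3 and 3, 1 and 4 without knockout library 1, 2 or 3.

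**Figure D4:**
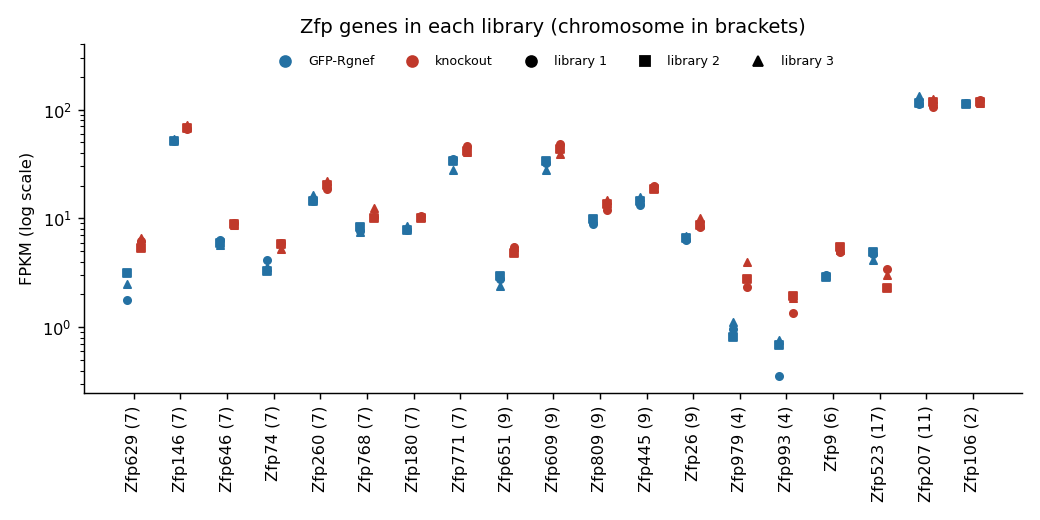
FPKM on a log axis in each of 3 GFP-Rgnef (blue) and 3 knockout (red) libraries for 19 Zfp genes named in the text, with the chromosome in brackets and the marker shape giving the library number. The red and blue points do not overlap in the genes of chromosomes 7 and 9 shown, most of them named by smallest p. They do not overlap either in Zfp979, Zfp993, Zfp9 and Zfp523 of the other autosomes. They do overlap in Zfp207 and Zfp106, the most abundant Zfp genes.

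On the other autosomes 3 genes rose, all with a KRAB domain pattern. Zfp979 (chr4:147611937-147642513) had 0.974, 0.807 and 1.11 FPKM in GFP-Rgnef and 2.32, 2.79 and 3.99 FPKM in knockout libraries, means of 0.965 ± 0.154 and 3.03 ± 0.861 FPKM (SD, n = 3) and a log2 difference of 1.02 (SE 0.164, adjusted p = 0.0068). Zfp9 (chr6:118461950-118479320) had 3.05, 2.88 and 2.99 against 4.89, 5.49 and 5.10 FPKM, means of 2.98 ± 0.0843 and 5.16 ± 0.302 FPKM and a difference of 0.63 (SE 0.093, adjusted p = 0.0050). The calls of Zfp979 and Zfp9 held with any 1 library left out. Zfp993, a neighbour of Zfp979 in the chromosome 4 cluster, had 0.354, 0.681 and 0.766 against 1.34, 1.94 and 1.87 FPKM (0.76, SE 0.155, adjusted p = 0.0163, but 0.0536 without GFP-Rgnef library 1 and 0.0725 without knockout library 2). It had 5 to 11 against 20 to 28 reads, and 71.0% of its 50-base windows occur in another gene, so its own level is uncertain.

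The gene that fell was Zfp523, the mouse counterpart of human ZNF76 and a relative of Zfp143. It had 4.69, 4.89 and 4.16 FPKM in GFP-Rgnef and 3.42, 2.29 and 3.04 FPKM in knockout libraries, means of 4.58 ± 0.377 and 2.92 ± 0.574 FPKM (SD, n = 3) and a difference of -0.52 (SE 0.131, adjusted p = 0.0361). The call was lost without GFP-Rgnef library 1 or 2 or knockout library 2 or 3 (adjusted p up to 0.129). The groups did not overlap with all 6 libraries.

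Genes of the other autosomes that came next by p did not pass. Zfp763 on chromosome 17 had a difference of 0.42 (adjusted p = 0.0502) and Zfp647 on chromosome 15 one of 0.54 (adjusted p = 0.0688). On the low side, Zfp692 had 16.3 ± 0.748 against 12.7 ± 1.70 FPKM (-0.34, adjusted p = 0.0697). Zfp326, a subunit of the DBIRD complex that acts on transcript elongation and splicing, had 37.7 ± 2.34 against 32.0 ± 0.814 FPKM (-0.23, adjusted p = 0.0703). Zfp706 had -0.21 (adjusted p = 0.0870), and Zfp513, which overlaps Snx17, had -0.20 (adjusted p = 0.136). Zfp57, a KRAB protein that maintains imprints, had 107, 102 and 93.4 FPKM in GFP-Rgnef and 94.1, 89.1 and 79.6 FPKM in knockout libraries (-0.20, adjusted p = 0.154), with overlapping groups.

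The most abundant Zfp genes were on these autosomes. Zfp207, the spindle assembly factor BuGZ, had 120 ± 11.1 against 116 ± 10.01 FPKM (-0.06, adjusted p = 0.736), and Zfp106, an RNA-binding protein, had 114 ± 0.866 against 118 ± 3.79 FPKM (0.05, adjusted p = 0.664). In both the groups overlapped. By chromosome, the medians of the other autosomes ran from -0.17 on chromosome 14 (3 genes) to 0.12 on chromosome 13 (21 genes), below those of chromosomes 7 and 9. Chromosome 17, with 38 Zfp genes the largest group after chromosome 7, had a median of 0.04.

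On X, all 5 Zfp genes had a difference above 0, with a median of 0.19, and 1 rose (14.1% of tested X genes were called higher). That gene was Zfp185, which encodes a LIM-domain protein of the actin cytoskeleton and has no C2H2 finger. It had 0.142, 0.304 and 0.280 FPKM in GFP-Rgnef and 0.897, 1.20 and 0.722 FPKM in knockout libraries (0.64, SE 0.144, adjusted p = 0.0244, up to 0.0940 without library 1 or 2 of either group), from 6 to 12 and 30 to 52 reads. Zfp711, a partner of the histone demethylase PHF8, had 0.325 ± 0.0837 against 0.828 ± 0.175 FPKM (0.46, adjusted p = 0.0598). Both genes were under 0.5 FPKM in the GFP-Rgnef mean and passed the level limit only through the knockout libraries, so their direction was favoured by the limit and the X counts support nothing.

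The differences of chromosomes 7 and 9 were spread over their clusters, taken as runs of Zfp genes with gaps of at most 3 Mb. On chromosome 7 the largest run, from 24081924 to 30169750, held 27 Zfp genes, of which 25 were above 0 and 7 rose, with a median of 0.28. It also held 82 other tested genes, with 17 called higher, 1 lower and a median of 0.24. The run at 4915217 to 7209998 held 10 Zfp genes with 9 above 0, a median of 0.17 and 0 called. Its 4 other tested genes had a median of 0.18, with 1 called higher. The run at 12415153 to 12985714 had 6 of 6 above 0 (median 0.35, 1 called), that at 41633203 to 43593235 had 7 of 7 (0.36, 1 called) and that at 127233061 to 127885996 had 9 of 10 (0.36, 4 called, among them Zfp629). In that order these runs held 3, 2 and 18 other tested genes, with medians of 0.15, 0.97 and 0.25. Of those genes 0, 2 and 3 were called higher. On chromosome 9 the run at 18455575 to 22307648 held 11 Zfp genes, 10 of them with a KRAB pattern, with 10 above 0, a median of 0.21 and 2 called. Its 41 other tested genes had a median of 0.19, with 4 called higher.

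Medians of the Zfp clusters on other autosomes lay on both sides of 0. On chromosome 17, 22 Zfp genes at 21008903 to 24682016 had a median of 0.05 with 0 called, and 10 at 32765496 to 33631779 had -0.01 with 0 called. On chromosome 13, 15 genes at 62129886 to 67827002 had 0.12 with 0 called. On chromosome 4, 6 genes at 146610961 to 147848366 had 0.18, 4 of them above 0 and 2 called (Zfp979 and Zfp993). Beside them lay 4 other tested genes with a median of 0.09 and 1 called higher. On chromosome 2, 5 genes at 175372436 to 178078476 had 0.17 with 0 called, beside 15 other tested genes with a median of 0.38 and 3 called higher. The lowest were 3 genes at 138139702 to 138619761 on chromosome 5 (-0.18) and 3 at 82763607 to 87959595 on chromosome 8 (-0.23), with 0 called in either. Coordinates are those of GENCODE M21 (GRCm38).

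Protein and promoter features were read from the annotation, and the members' differences are given by each. A KRAB-like pattern was found in 44 of the 81 genes of chromosomes 7 and 9. Those had a median ratio of group means of 1.31, with 41 above 0 and 7 called, and the 37 genes without it had 1.22, with 35 above 0 and 11 called. Their median levels differed, at 2.90 and 7.58 FPKM. Of all tested genes of these chromosomes 32.2% were called higher. On the other autosomes 92 genes with the pattern had a median ratio of 1.05 (63 above 0, 3 called higher) and 95 without it 0.984 (45 above 0, 1 called lower). There 4.16% of all tested genes were called higher and 6.12% lower. Genes with a KRAB pattern thus had the higher median ratio in both sets of chromosomes. The pattern is a rough one and misses some KRAB domains.

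By finger number, the 16 genes of chromosomes 7 and 9 with fewer than 8 fingers had a median ratio of 1.17, the 35 with 8 to 12 had 1.27 and the 30 with more than 12 had 1.36. By level, the 19 genes under 2 FPKM had 1.25 with 1 called, the 24 at 2 to 5 FPKM had 1.32 with 4 called, the 20 at 5 to 10 FPKM had 1.16 with 6 called and the 18 at 10 FPKM or more had 1.28 with 7 called. Calls by level, and by promoter below, are to be read against 32.2% of all tested genes of these chromosomes called higher. Among genes without a Zfp symbol there at 2.03 to 10.2 FPKM the share was 22.95%. Across the 81 genes, Spearman's rank correlation of the log2 ratio was -0.21 with mean level and 0.25 with finger number. Over 187 genes of the other autosomes the correlations were similar, at -0.24 and 0.17. The median ratios there were 1.02, 0.996 and 1.04 by the same finger groups and 1.04, 1.07, 1.02 and 0.980 by the same level groups. Of the genes of chromosomes 7 and 9 with a RefSeq promoter, the 33 with fewer CpG than the median Zfp promoter had a median ratio of 1.36 (33 above 0, 11 called). The 40 others had 1.19 (36 above 0, 5 called). On the other autosomes the same split gave 1.04 (75 genes) and 0.992 (76 genes). Across genes, Spearman's rank correlation between CpG number and the log2 ratio of group means was -0.41 over 73 genes of chromosomes 7 and 9 and -0.28 over 151 of the other autosomes. The genes share libraries and differ in level, and these values are a description.

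Promoters of the Zfp genes over the level limit, on all chromosomes, were set beside all RefSeq promoters, which were not chosen by level. The Zfp promoters held 4 of the motifs searched more often, and the TATA box less often. Of 226 Zfp genes with a RefSeq promoter, 38.1% held the ETS core, against 16.9% of all 32851 promoters of the same length. The YY1 core was in 19.03% against 8.93%, the CCAAT box in 50.4% against 37.4%, the GC box in 45.6% against 35.7% and the TATA box in 6.20% against 13.6%. For the ETS core the share was 37.0% on chromosomes 7 and 9 (73 genes) and 39.1% on the other autosomes (151 genes), and for the YY1 core 16.4% and 20.5%. The GC box was in 38.4% and 48.3% and the CCAAT box in 41.1% and 54.3%, so on chromosomes 7 and 9 these shares lay closer to those of all promoters. The TATA box was in 5.48% and 6.62%. The median Zfp promoter had 14 CpG on chromosome 7, 20 on chromosome 9 and 14 on the other autosomes, and the median of all promoters was 7. The GC box, the ETS core and the YY1 core each contain a CpG. Promoters of other expressed genes, or of like CpG number, were not compared. Whether the motif shares are particular to Zfp genes was therefore not tested.

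Among the partners of KRAB zinc finger proteins in corepression and H3 lysine methylation, 31 genes were tested, 2 rose and 0 fell, against 8.04% and 5.34% of all tested genes, with a list median of -0.04 (all tested genes -0.02). Trim28, the corepressor itself and a chromosome 7 gene, had 419, 411 and 368 FPKM in GFP-Rgnef and 506, 485 and 490 FPKM in knockout libraries, a difference of 0.31 (SE 0.0669, adjusted p = 0.0212, up to 0.0706 without GFP-Rgnef library 2 or knockout library 1 or 2). Of all tested genes of chromosome 7, 28.8% were called higher. With the chromosome's median removed, Trim28 lost its call (limma adjusted p = 0.646). Chd3, a nucleosome remodeller of the NuRD complex on chromosome 11, had 39.0 ± 3.33 against 49.9 ± 3.02 FPKM (0.35, adjusted p = 0.0298, up to 0.107 without any library but GFP-Rgnef 3). The 27 list genes of the other autosomes had a median of -0.04.

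In other zinc finger families the genes of chromosomes 7 and 9 were also above 0. Calls over a whole list are to be read against the same 8.04% higher and 5.34% lower. Those on chromosomes 7 and 9 are to be read against 32.2% higher and 1.03% lower, the shares of all tested genes there. Of 36 Zbtb genes, which pair fingers with a BTB domain, 2 rose, 0 fell and the median was 0.01, and all 3 on chromosomes 7 and 9 were above 0. They included Zbtb38 on chromosome 9, with 14.9 ± 0.596 against 19.5 ± 1.89 FPKM (0.36, adjusted p = 0.0313, up to 0.108 without any library but knockout 2). The other, Zbtb8a on chromosome 4, overlaps Zbtb8os and had 1.09 ± 0.440 against 2.90 ± 0.953 FPKM (0.89, adjusted p = 0.0347, up to 0.127 without GFP-Rgnef library 2 or 3 or knockout library 1 or 2). Of 17 Klf and Sp genes 1 rose and 0 fell, with a median of -0.07. It was Klf13 on chromosome 7, with 33.8, 34.2 and 31.9 against 46.3, 43.9 and 41.9 FPKM (0.39, SE 0.0690, adjusted p = 0.0094), while Klf4 on chromosome 4 had 182 ± 4.62 against 160 ± 26.6 FPKM (-0.20, adjusted p = 0.310). With chromosome medians removed, Zbtb38 (limma adjusted p = 0.664) and Klf13 (adjusted p = 0.237) lost their calls. Of 15 Zkscan and Zscan genes, which carry a SCAN domain, limma called 0 in either direction, with a median of -0.0030, and the most abundant, Zkscan17, had 57.6 ± 2.67 against 51.7 ± 2.77 FPKM (-0.15, adjusted p = 0.196).

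Of 57 genes of zinc-binding families of other kinds, 1 rose and 7 fell, against 8.04% and 5.34% of all tested genes, with a median of -0.03. All 7 on chromosomes 7 and 9 were above 0, and the 1 that rose was among them, the palmitoyltransferase gene Zdhhc3 on chromosome 9, with 64.7 ± 2.09 against 83.8 ± 1.37 FPKM (0.37, SE 0.0593, adjusted p = 0.0067). Of all tested genes of chromosomes 7 and 9, 32.2% were called higher. With the chromosome's median removed, Zdhhc3 lost its call (limma adjusted p = 0.466). All 7 that fell were among the 48 on the other autosomes, where 6.12% of tested genes were called lower. Zfpm1 on chromosome 8, which encodes the GATA cofactor FOG1, had 78.7, 80.2 and 65.3 FPKM in GFP-Rgnef and 43.4, 38.0 and 48.4 FPKM in knockout libraries (-0.78, SE 0.110, adjusted p = 0.0046), and Zdhhc18 on chromosome 4 had 61.8 ± 0.514 against 43.5 ± 3.61 FPKM (-0.50, adjusted p = 0.0053).

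Counting could mix related genes. For 25 of the 273 Zfp genes the exons overlap a second gene, itself expressed at 10% or more of the Zfp gene's level, and 41 genes share at least 10% of their 50-base windows with another gene. Without the overlapping genes, 12 of 60 rose on chromosome 7, 5 of 15 on chromosome 9 and 3 of 168 on the other autosomes, and without the genes of shared sequence 12 of 55, 5 of 14 and 2 of 158 did.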

How the data were processed

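RNA of 6 libraries, 3 per group, was measured by sequencing. The authors deposited 1 table of FPKM per gene for all libraries. Per the submitters' processing notes the tools were CASAVA 1.8, TopHat2 2.0.9 and DESeq2 with mm10; their roles, the annotation and the use of strand are not given in the sources used here. Depths were read from the value steps. At these depths 4228 genes gave whole reads (tolerance 0.02) at the annotated length and 15427 at the smallest other length that fitted, so reads of the latter are a minimum; the recovered reads summed to 99.77% to 99.85% of the implied depths.

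Symbols, classes and positions came from GENCODE M21 (GRCm38; 785 of 35275 rows had no symbol), promoters from RefSeq (GRCm38.p6, 226 of 273 genes matched), and finger and KRAB patterns from the longest reading frame of each gene's transcripts. Values were log2(FPKM + 1). The main test was limma 3.58.1 (R 4.3.3) with trend over 11500 genes with a mean FPKM of 0.5 or more; p-values were adjusted by Benjamini and Hochberg's method and called under 0.05. Summaries were made in pandas 2.3.3 and numpy 2.4.6 (Python 3.11.15), and plots in matplotlib 3.10.9. The fit was tested on simulated data.

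Genes were named by a rule: on chromosomes 7 and 9 the 7 of smallest p and the 2 lowest; on other autosomes the 5 highest and 5 lowest called, filled by smallest p; the 2 most abundant of each set; 2 on X; and those next to the level limit. In each list, up to 3 called genes, filled to 2 by level, were named. Genes named outside it were chosen after their values were seen. The members, chromosomes and lists were chosen with earlier results of these data known. Alternatives covered pseudocount, level limit, scaling, chromosome centring, trend, block, voom on recovered reads and left-out libraries.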

Additional observations from a re-analysis of the deposited data

How the results depend on the processing

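Main counts were 22 Zfp genes higher and 1 lower, of these 13 higher on chromosome 7, 5 on chromosome 9, 3 on the other autosomes and 1 on X, with the gene that fell on an autosome other than 7 and 9. With each chromosome's median removed, 6 were higher and 0 lower (1 on chromosome 7, 1 on chromosome 9, 0 on X). Centring on the other autosomes gave 20 on chromosome 7, 6 on the other autosomes and 2 on X. A mean of at least 5 FPKM gave 13 higher and 0 lower (0 on the other autosomes and X), one of at least 2 FPKM gave 1 on the other autosomes and 0 on X, and no limit gave 14 higher and 0 lower (4 on chromosome 7, 2 on X). Fits without trend and with voom each gave 2 on X. Libraries numbered 1 and 2 alone gave 4 lower, and 6 higher on the other autosomes. The ranges with 1 library left out were 7 to 22 higher and 0 to 3 lower in all, 4 to 11 on chromosome 7, 1 to 5 on chromosome 9, 2 to 5 higher and 0 to 3 lower on the other autosomes, and 0 to 1 on X. Medians on chromosome 7 were 0.25 as reported, 0.31 with TPM scaling, 0.29 centred on the other autosomes, 0.002375 with chromosome medians removed, 0.33 and 0.30 at pseudocounts of 0.1 and 0.5, 0.34 with voom and 0.24 to 0.29 with 1 library left out. Those on chromosome 9 were 0.25 as reported, -0.0379 with chromosome medians removed, 0.37 at 5 FPKM or more, 0.33 at a pseudocount of 0.1, 0.34 with voom and 0.25 to 0.33 with 1 library left out. The median of the other autosomes ran from -0.0161 to 0.0717 with 1 library left out. Pseudocounts of 0.1 and 0.5, quantile normalization and omission of overlapping genes kept every count of Zfp genes called within 1.5 times. No called direction reversed; apart from the construction of the alternatives (fewer genes or libraries, a median removed), the cause was not tested.

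Library numbers did not pair the samples throughout. Deviations of same-numbered libraries correlated at 0.32, -0.02 and 0.55 over all tested genes, and not every library correlated best with its own number. The libraries numbered 3 did deviate together. GFP-Rgnef library 3 correlated at -0.52 and -0.20 with knockout libraries 1 and 2, and knockout library 3 at -0.46 and -0.30 with GFP-Rgnef libraries 1 and 2. The main fit had no term for what the libraries numbered 3 shared. A replicate block gave 39 higher and 5 lower (25 on chromosome 7, 6 on chromosome 9, 6 higher and 5 lower on the other autosomes, 2 on X), and 1517 higher and 1253 lower over all genes, against 925 and 614. Over all genes the chromosome-centred fit gave 497 and 379, no level limit 725 and 394, libraries 1 and 2 alone 1273 and 1048, and left-out libraries 455 to 850 and 198 to 578. Of 638 refits of 35 named genes, 67 lost and 24 gained a call. The lists of other families ranged, over all fits, over 0 to 3 genes higher and 0 to 1 lower for corepressors, 0 to 3 and 0 to 1 for Zbtb, 0 to 2 and 0 to 2 for Klf and Sp, 0 in both directions for Zkscan and Zscan, and 0 to 1 and 3 to 10 for the other zinc-binding families. Of 23 called Zfp genes 6 (Zfp629, Zfp651, Zfp146, Zfp646, Zfp9 and Zfp979) kept the call with any 1 library left out. Of these, Zfp146 and Zfp646 lost the call with chromosome medians removed. Named Zfp genes under 1 FPKM in GFP-Rgnef cells rest on few reads, as with Zfp993 (5 to 28 in a library) and Zfp185 (6 to 52).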

Other observations

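The 67 Zfp genes above 0 but under a mean of 0.5 FPKM were tested only in the fit without a level limit. Of the 21 on chromosome 7, 20 had the higher mean in knockout cells, and their summed reads were 99, 111 and 136 in the GFP-Rgnef libraries and 225, 204 and 225 in the knockout libraries. The 1 gene on chromosome 9, Zfp202, had 12, 19 and 19 against 30, 33 and 58 reads. On the other autosomes 31 of 43 had the higher mean in knockout cells, with summed reads of 211, 219 and 292 against 328, 342 and 409. In all 3 sets every knockout library was above every GFP-Rgnef library, including the set outside chromosomes 7 and 9. On X, 1 of 2 had the higher mean in knockout cells, with 7, 1 and 3 against 10, 10 and 12 reads. These reads are minimum estimates where the gene length had to be inferred from the value steps, and the values cover few reads per gene. The reads were not scaled for library depth. Other genes under the level limit were not counted, so the values do not show whether this is particular to Zfp genes.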
